A study of Homo sapiens with 2 samples.

Results

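CHD4 peaks of at most 200 bp that lay away from promoters were examined in the human melanoma cell line 501Mel. A peak is a stretch of the genome that the authors' peak caller marked as richer in CHD4-bound DNA than the background. The peaks were chosen by length alone, among those that did not overlap the 1000 bp either side of any transcript start of GENCODE release 44 mapped to the hg19 build. By this rule 5006 of the 60099 peaks on chromosomes 1-22 and X were taken, that is 8.33% (Wilson 95% interval 8.11 to 8.55). They made up 10.85% of the 46157 peaks away from promoters, and the other 41151 of these were longer and served for comparison, among them 12075 of at most 450 bp. The short peaks covered 829813 bp, or 1.48% of the bases in peaks. Of the peaks that overlapped a promoter, 1100 of 13942 (7.89%) were as short, a share 2.96 points lower (Newcombe 95% interval 2.42 to 3.48). All intervals cover counting error only, and peaks are not replicates of a condition.

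The series holds 1 library of CHD4-bound chromatin and 1 library of input chromatin, both from 501Mel cells fixed with paraformaldehyde, with no treatment named in the labels. Single reads were mapped to hg19, and broad peaks were called from them. There was 1 library per group, so no test between conditions could be made, and the list carries no read counts, so the depth behind a peak is unknown here. A peak list measures no expression, and the melanoma label could not be checked against marker genes.

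CHD4 is an ATP-driven nucleosome remodeller and the motor subunit of the NuRD complex, which also carries histone deacetylases and proteins that read methylated DNA. NuRD is found at promoters and at enhancers, which are control elements away from the genes they act on. CTCF is a zinc finger protein that recognises a long, directional DNA motif, holds chromatin loops together and keeps the nucleosomes on either side of it in ordered arrays. MITF, the master regulator of the melanocyte lineage, binds E-boxes, among them CACGTG and CATGTG, and often prefers a T before the latter.

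The sequences that follow are reference sequences of the GRCh37 assembly, the genome that hg19 names, written 5′ to 3′. The first pair are the short peaks of highest fold enrichment, which is the ratio of the ChIP signal to the background that the authors' peak caller gave. The first lies in *GPD2*, the gene of mitochondrial glycerol-3-phosphate dehydrogenase, at chr2:157446054-157446231. It is 154341 bp after the annotated gene start and outside the canonical transcript, the one that the annotation takes as representative of the gene. The other lies in intron 4 of *SWT1* at chr1:185139527-185139718, and both are written from the plus strand. Neither sequence holds a letter in capitals because neither holds the motifs marked in the others.
GPD2: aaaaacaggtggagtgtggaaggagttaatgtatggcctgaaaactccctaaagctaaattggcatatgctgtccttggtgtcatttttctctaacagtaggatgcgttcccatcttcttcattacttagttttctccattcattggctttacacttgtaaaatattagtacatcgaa
SWT1: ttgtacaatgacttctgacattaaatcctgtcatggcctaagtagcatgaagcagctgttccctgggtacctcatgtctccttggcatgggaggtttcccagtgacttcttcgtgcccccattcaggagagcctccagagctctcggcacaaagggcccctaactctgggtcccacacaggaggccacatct

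The next sequences show what was found beside or within short peaks more often than in the DNA around them. The first 5 are the short peaks of highest fold enrichment with a match to the CTCF motif, and each is written along the strand of the motif, from the first base of the match to the last base of the peak. Capitals mark the match, which lies outside the peak in each. Outside protein-coding genes, the nearest protein-coding start names the site and says nothing of which gene the site acts on. From the centre of the peak this start lay 179651 bp away for *C12orf50*, 62582 bp for *GREB1L*, 1334 bp for *LRCH1* and 10855 bp for *RPS14*. The stretches are chr17:2752255-2752452, plus strand, in intron 2 of *RAP1GAP2*, the gene of a GTPase-activating protein of Rap1, where the peak begins at base 33, and chr12:88242007-88242223, minus strand, near *C12orf50*, where it begins at base 53. The others are chr18:18759529-18759774, minus strand, near *GREB1L*, with the peak from base 83, chr13:47125790-47126065, plus strand, near *LRCH1*, also from base 83, and chr5:149815557-149815823, minus strand, near *RPS14*, the gene of a ribosomal protein, from base 92.
RAP1GAP2: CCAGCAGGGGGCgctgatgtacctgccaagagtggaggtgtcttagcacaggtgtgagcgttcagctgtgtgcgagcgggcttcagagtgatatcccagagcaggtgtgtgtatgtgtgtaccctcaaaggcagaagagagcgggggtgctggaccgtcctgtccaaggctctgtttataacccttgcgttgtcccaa
C12orf50: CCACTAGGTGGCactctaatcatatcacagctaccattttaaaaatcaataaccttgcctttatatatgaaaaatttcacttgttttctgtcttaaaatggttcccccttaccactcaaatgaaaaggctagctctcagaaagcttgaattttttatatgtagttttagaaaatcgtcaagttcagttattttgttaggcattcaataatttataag
GREB1L: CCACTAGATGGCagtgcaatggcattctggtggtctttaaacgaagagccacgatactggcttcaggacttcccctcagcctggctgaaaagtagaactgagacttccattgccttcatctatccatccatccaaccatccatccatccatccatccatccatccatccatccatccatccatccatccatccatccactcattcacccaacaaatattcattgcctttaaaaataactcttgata
LRCH1: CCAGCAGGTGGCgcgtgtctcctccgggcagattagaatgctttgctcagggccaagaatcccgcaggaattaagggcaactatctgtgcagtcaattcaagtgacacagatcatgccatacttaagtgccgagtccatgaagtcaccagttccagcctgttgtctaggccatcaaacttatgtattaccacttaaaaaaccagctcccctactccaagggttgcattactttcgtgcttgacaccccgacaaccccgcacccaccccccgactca
RPS14: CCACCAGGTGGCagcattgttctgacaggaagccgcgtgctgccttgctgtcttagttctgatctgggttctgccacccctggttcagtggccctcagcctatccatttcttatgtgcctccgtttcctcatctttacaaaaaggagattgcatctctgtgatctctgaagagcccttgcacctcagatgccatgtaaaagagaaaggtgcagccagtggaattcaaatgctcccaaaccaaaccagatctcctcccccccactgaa

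Of the short peaks whose own bases held TCATGTG, the 3 of highest fold enrichment are shown with that word in capitals. They lie on the plus strand at chr5:102920947-102921103 near *NUDT12*, chr12:80457798-80457983 near *OTOGL* and chr4:3786669-3786847 near *ADRA2C*, the gene of an adrenergic receptor. These are the nearest protein-coding starts, at 22534, 35426 and 18646 bp from the centre, in this order.
NUDT12: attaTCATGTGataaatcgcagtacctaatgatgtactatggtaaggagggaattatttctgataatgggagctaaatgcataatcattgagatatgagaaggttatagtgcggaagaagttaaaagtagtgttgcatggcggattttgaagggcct
OTOGL: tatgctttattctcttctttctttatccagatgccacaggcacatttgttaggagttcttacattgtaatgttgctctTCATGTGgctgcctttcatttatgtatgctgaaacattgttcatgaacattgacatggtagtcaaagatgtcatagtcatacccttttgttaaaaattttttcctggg
ADRA2C: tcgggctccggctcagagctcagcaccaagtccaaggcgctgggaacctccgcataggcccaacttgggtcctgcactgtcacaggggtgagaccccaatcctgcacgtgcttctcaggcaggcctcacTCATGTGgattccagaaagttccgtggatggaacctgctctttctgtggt

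The short peaks were between 151 and 200 bp long, with a median of 160 bp (95% interval 159 to 161). Of them, 1545 (30.9%, 29.6 to 32.2) had a length of exactly 151 bp, the length to which the authors extended each read and the shortest in the list. Above this value the numbers per length fell to a level plateau before the limit, and the limit itself divides that plateau. The 534 peaks within 10 bp inside the limit had medians of 3.03 for the fold enrichment and 1.87 for −log10 q, and the 492 peaks within 10 bp outside it had 2.96 and 1.70. The limit thus cuts through peaks of similar values.

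**Figure D1:**
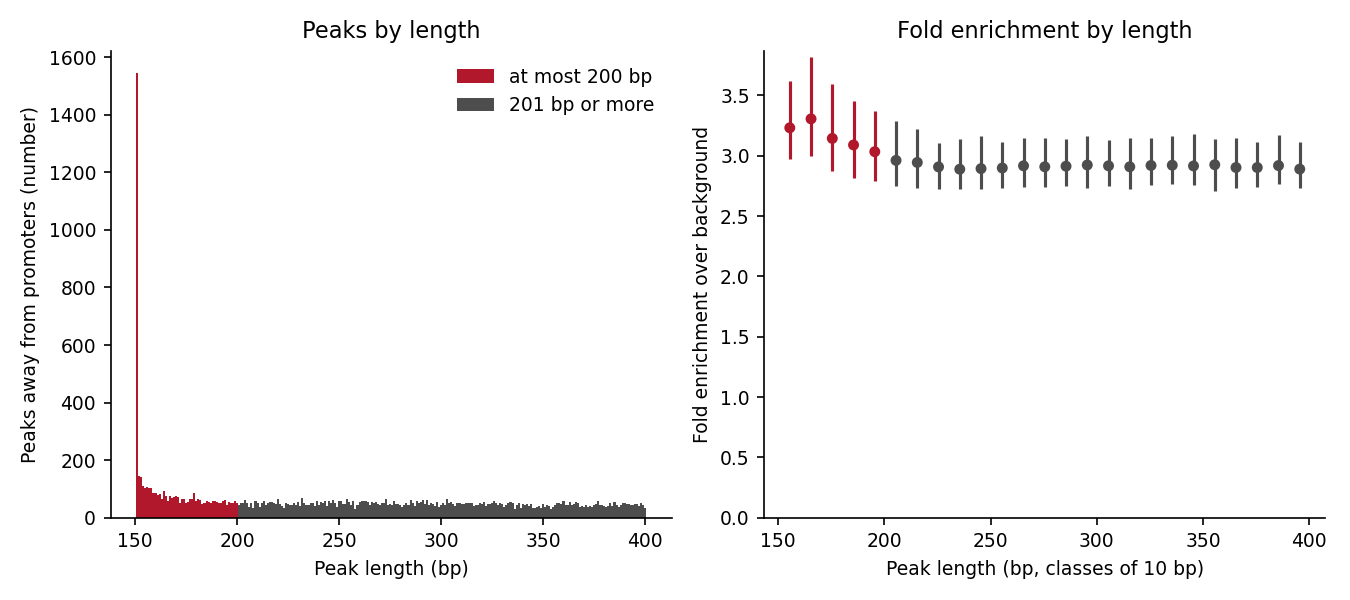
Left, the number of peaks away from promoters at each length in bp, with the short peaks in red and longer ones, shown to 400 bp, in grey; the column of 1545 peaks at 151 bp stands above all others drawn. Right, the median fold enrichment (points) and its quartiles (lines) in classes of 10 bp, from 3.23 in the shortest class to 2.89 in the class that ends at 400 bp.

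The median fold enrichment of the short peaks was 3.20, with quartiles of 2.92 and 3.60 and a range of 2.17 to 8.66. Longer peaks away from promoters had a median of 3.05 and reached 9.94, and short peaks at promoters had a median of 3.44. These values and the −log10 q below come from the same peak call as the length by which the peaks were chosen. They are given as a description, and the part that length plays in them was not tested. The −log10 q, in which a higher value marks a peak less easily explained by the background, had a median of 2.17 and ranged from 1.01 to 17.5. A −log10 q of at least 2 was reached by 2861 short peaks (57.2%), beside 48.5% of all peaks on these chromosomes. A value of at least 5 was reached by 222 (4.44%), beside 2.23% of all peaks, and one of at least 10 by 4 (0.0799%), beside 0.0832%. A fold enrichment of at least 5 was reached by 71 (1.42%), beside 0.501% of all peaks.

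Of the 10 short peaks of highest fold enrichment, the *GPD2* peak, 178 bp long, was first at a fold of 8.66 over background (−log10 q 17.5). The next was the *SWT1* peak at 6.57 and 10.9, 1219 bp from a transcript start. The other 8 of the 10 highest ranged from 5.88 to 6.55. Of these, 2 lay in introns, of *CLIC5*, a member of the chloride intracellular channel family, at 6.11 and of *RAP1GAP2* at 5.98. Of the rest, 5 lay outside protein-coding genes with the nearest protein-coding start that of *DCTD* (dCMP deaminase, 6.55), *COX7A1* (a cytochrome c oxidase subunit, 6.17), *GUCY1B1* (a guanylate cyclase subunit, 6.05), *GALNTL5* (5.98) and *LHX2* (a LIM homeodomain factor, 5.88). The distances to these 5 starts went from 3555 bp for *GUCY1B1* to 109165 bp for *DCTD*. Only the *RAP1GAP2* peak of these 10 had a CTCF match within 250 bp of its centre.

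Of the motifs with more than a few matches, that of CTCF had the highest ratio to the flanks, in short and in longer peaks alike. A whole match lay within 250 bp of the centre of 118 short peaks, that is 2.36% (1.97 to 2.82). In flanks of the same size centred 5000 bp to either side the share was 0.240%, which gives a ratio of 9.83 (6.35 to 15.2), and in windows of the same size tiled every 10000 bp along the genome it was 0.177%. Among longer peaks away from promoters 1.38% had a match, at a ratio of 5.93 (5.03 to 6.98), and the share was 0.982 points lower than in the short peaks (0.579 to 1.45). This difference was not seen in a comparison that changed both the window and the set of longer peaks, whose parts were not separated. Within 600 bp of the centre, a width added after these values were seen, 141 short peaks (2.82%, 2.39 to 3.31) and 341 of the peaks of over 200 and at most 450 bp (2.82%, 2.54 to 3.14) had a match, with a difference of −0.00740 points (−0.533 to 0.562). Read backwards, which keeps the base composition of the motif, it was found at 1 short peak and in 4 of 10012 flanks. Tiled windows held the backwards word in 0.031%, and these counts are too few to compare. A match is a sequence and was not tested for binding of CTCF in these cells.

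What differed was the position of the motif relative to the centre. In short peaks it lay beside the peak and not within it. None of the 5006 short peaks held a whole match in its own bases, against 8 of 10012 equally long stretches of the flanks. In the 118 with a match, the edge of the peak was a median of 69 bp from the match, with quartiles of 49.3 and 86.8 bp and a range of 1 to 157 bp. Per 1000 peaks and 100 bp, matches numbered 0.400 within 100 bp of the centre, 10.1 between 100 and 200 bp and 1.90 between 200 and 300 bp. Peaks of over 200 and at most 450 bp had matches both near the centre and farther out. They numbered 6.25 within 100 bp, 0.994 between 100 and 200 bp and 4.43 between 200 and 300 bp. The distance from the edge was not measured for these longer peaks, so a motif beside the peak is not shown to be particular to short ones.

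The short peaks also took sides. Read along the strand of the motif, from its 5′ end to its 3′ end, 83 of the 118 had their centre downstream of the match and 35 upstream. The downstream share was 70.3% (61.6 to 77.8), so that the interval leaves out an even split. The median distance between the centre of the peak and the match was 158 bp downstream and 144 bp upstream. All 5 of the sequences printed above with a CTCF match lie downstream, and without them the share was 69.0% (60.0 to 76.8). The side was not particular to short peaks. Among peaks of over 200 and at most 450 bp with a match between 150 and 350 bp from the centre, 107 of 144 lay downstream (74.3%, 66.6 to 80.8), whereas with a match within 150 bp of the centre 70 of 153 did (45.8%, 38.1 to 53.7).

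Stronger short peaks had a CTCF match more often. It was 0.653% (0.389 to 1.09) of the 2145 with a −log10 q under 2, 2.65% (2.11 to 3.34) of the 2639 with a value from 2 to under 5, and 15.3% (11.2 to 20.6) of the 222 with 5 or more. These 3 intervals do not overlap. In longer peaks away from promoters the same classes gave 1.21%, 1.49% and 3.97%, also within 250 bp of the centre. These peaks had a median length of 654 bp, so a match beside one can lie outside that window. The 2 sets of shares are therefore not alike in what they cover. Short peaks with a match had a median fold enrichment of 4.02, against 3.19 in those without. Of the 118 with a match, 6 had another peak within 1000 bp (5.09%, beside 17.3% of all short peaks). A match to AP-1, the factor of FOS and JUN proteins, was as frequent among them, at 22 (18.6%, 12.7 to 26.6), as among all short peaks at 17.8%.

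**Figure D2:**
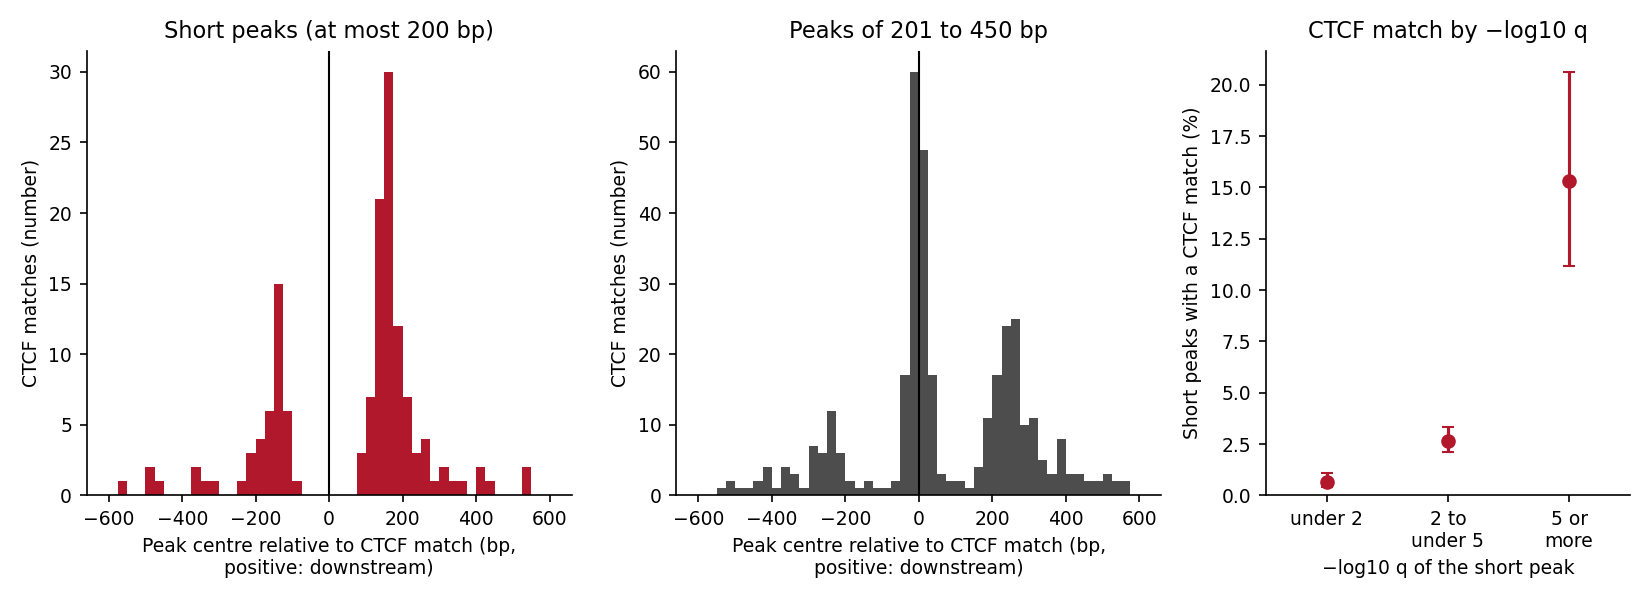
Left and middle, the number of CTCF matches by the position of the peak centre relative to the match in bp, in classes of 25 bp, with positive values downstream along the strand of the motif, for short peaks (red) and for peaks of over 200 and at most 450 bp (grey); short peaks are sparse at 0 and gather on both sides, more of them downstream. Right, the share of short peaks with a match by their −log10 q, with Wilson 95% intervals, from 0.653% to 15.3%.

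E-boxes were also found more often at short peaks than around them, but to a like degree at longer peaks. CATGTG, counted on both strands, lay within 250 bp of the centre of 36.7% of the short peaks, against 27.1% of the flanks and 29.1% of the tiled windows, a ratio to the flanks of 1.35 (1.29 to 1.42). The share was 0.349 points above that of longer peaks (−1.06 to 1.77), an interval that includes 0. The same letters read backwards, a control for base composition, had a ratio of 1.30 in the short peaks, within the interval of the forward ratio. CACGTG was found in 7.29% of the short peaks, with a ratio of 1.50 (1.31 to 1.71) against 1.14 backwards and 4.34% of tiled windows.

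The longer word TCATGTG, which contains CATGTG, was looked at after frequent words of these peaks had been seen. It was found near 583 short peaks (11.7%), with a ratio of 1.66 (1.49 to 1.84) and 8.05% of tiled windows. Matches numbered 29.3 per 1000 short peaks and 100 bp within 100 bp of the centre and 14.7 at 500 to 600 bp. In their own bases 224 short peaks held it (4.48%), against 2.27% of equally long flanks. The share with CATGTG stayed between 35.1% and 37.5% across the 3 classes of −log10 q, unlike that of CTCF. Against longer peaks the share with TCATGTG differed by −0.405 points (−1.32 to 0.565), an interval that includes 0.

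Most other motifs differed less from the flanks. AP-1, written TGANTCA, was found in 17.8% of the short peaks, with a ratio to the flanks of 1.19 (1.10 to 1.28) and 15.1% of tiled windows, and read backwards its ratio was 1.25. Against longer peaks its share differed by −1.54 points (−2.64 to −0.391). TEAD, written CATTCC, the motif of the partners of YAP, had a share of 25.7% and a ratio of 1.07, against 1.13 backwards (24.6% of tiled windows). Its share differed from that of longer peaks by −1.50 points (−2.77 to −0.202). SOX, written ACAAAG, had a ratio of 1.15 and 1.10 backwards, and was found in 36.9% of tiled windows. The ratios of the words TGTGGT for RUNX factors, GCCNNNGGC for TFAP2, AAGATGGC for YY1, CCGGAA for ETS factors and AGATAA for the family of GATA1 lay between 0.992 and 1.07, and the interval of each included 1. Tiled windows held them in 31.0%, 6.41%, 2.16%, 2.87% and 33.3%, in this order.

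A few motifs stood out from the flanks by rarity or by number, and this was not particular to short peaks. The SP/KLF motif GGGCGG, common at promoters, was found in 6.99% of the short peaks, less often than in the flanks at a ratio of 0.767 (0.681 to 0.863) and 0.684 backwards, but more often than in tiled windows at 5.52%. As with CTCF, its share rose with −log10 q, from 5.83% (4.91 to 6.90) under 2 to 11.3% (7.7 to 16.1) at 5 or more. TGACGTCA, the motif of CREB and ATF factors, was found near 24 short peaks with a ratio of 2.82 (1.52 to 5.25) and in 0.162% of tiled windows. NFI and NRF1 matches numbered 7 and 2, too few to compare. GGTCACA, added after the words had been seen, had a ratio of 1.59 (1.41 to 1.79) and was in 5.54% of tiled windows. At longer peaks the ratios of SP/KLF, TGACGTCA and GGTCACA were 0.864, 1.95 and 1.43, in this order. Their shares differed from those of longer peaks by −0.646 points (−1.37 to 0.136), 0.0906 points (−0.0793 to 0.330) and 0.284 points (−0.529 to 1.15). Runs of 8 CA units on either strand were found near 184 short peaks (3.68%), with a ratio of 2.22 (1.80 to 2.73) and 1.54% of tiled windows, and were 0.883 points more frequent than near longer peaks (0.370 to 1.46). In their own bases 89 short peaks held such a run (1.78%), against 0.559% of equally long flanks, and the longest run was 52 bp.

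**Figure D3:**
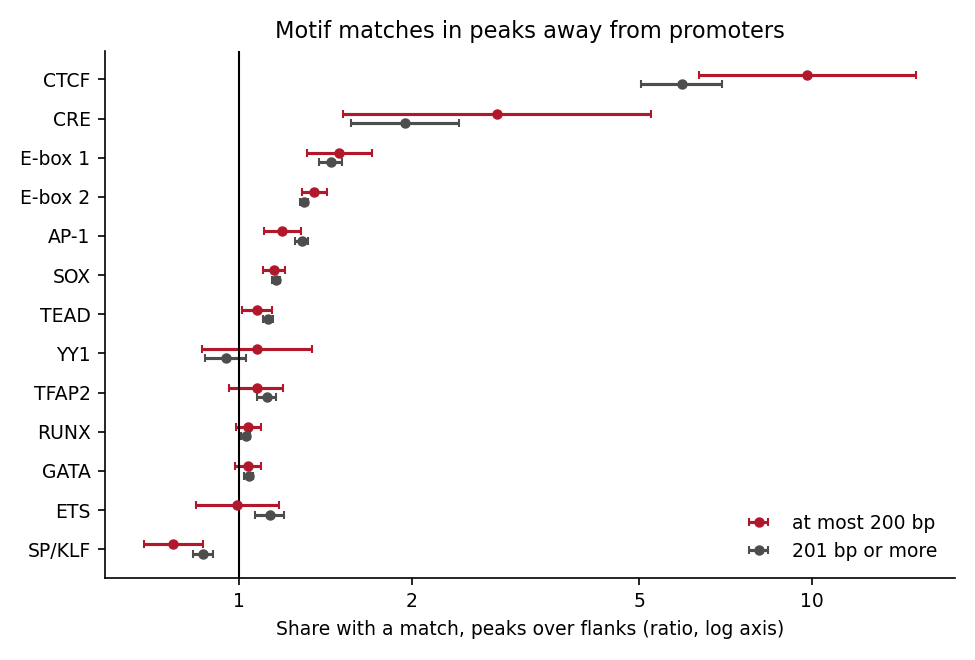
The share of peaks with a match within 250 bp of the centre divided by that of flanks 5000 bp away, on a log axis with 95% intervals, for short peaks (red) and longer peaks (grey) away from promoters; E-box 1 is CACGTG, E-box 2 is CATGTG and CRE, the motif of CREB and ATF factors, is TGACGTCA. CTCF is farthest from 1 in both, at 9.83 and 5.93, and SP/KLF lies below 1, at 0.767 in the short peaks.

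The bases of the short peaks were richer in G and C than their surroundings. Their own bases had a median GC content of 43.7% (43.5 to 44.1) and ranged from 19.2% to 71.7%. Within 250 bp of the centre the median was 41.7%, against 42.1% in the flanks, 42.3% at longer peaks and 39.7% in the tiled windows. The profile rose above 44% at the centre and fell to about 41% some 200 bp to either side before it returned to the level of the flanks. Peaks of over 200 and at most 450 bp had 2 maxima instead of 1. CpG pairs were at a median of 0.183 of the number that the base composition gives, against 0.184 at longer peaks and 0.204 in the flanks, so that neither kind of peak was set in CpG-rich DNA.

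The short peaks sat in sequence that occurs once in the genome. The authors kept reads with a single best position, so a repeat can hold fewer reads. Of words of 50 bases within 60 bp of the centre, 99.3% were found once on the 2 strands of the genome, against 94.7% at 200 to 400 bp from the centre and 94.0% in the flanks. At peaks of over 200 and at most 450 bp the first 2 values were 98.8% and 96.2%. For 4848 short peaks (96.8%) each word tested near the centre was found once, and for 2 none was. The part that mapping played in the extent of the peaks was not tested. An alignment of at least 100 bp and 80% identity to another short peak was found for 303 short peaks (6.05%), against 18.6% of equally long flanks, so few of the short peaks are copies of each other.

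**Figure D4:**
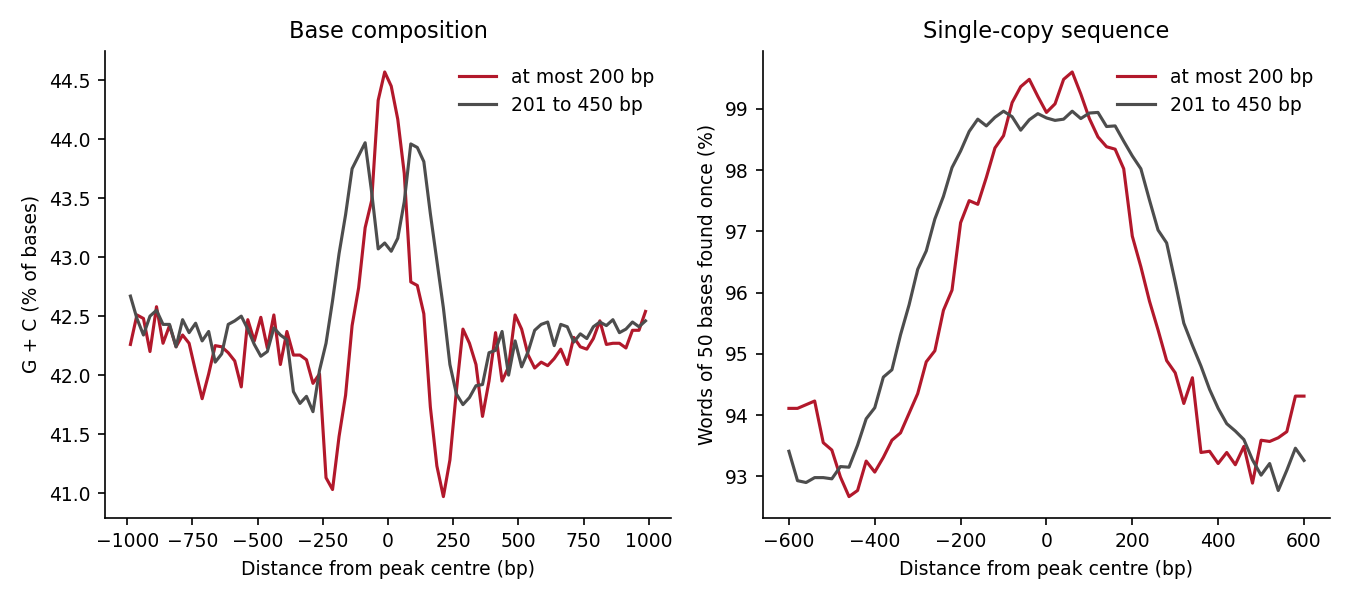
Left, the share of G and C in percent of bases by the distance from the peak centre in bp, and right, the share of words of 50 bases found once in the genome, for short peaks (red) and peaks of over 200 and at most 450 bp (grey); the vertical axes do not start at 0. Both measures are highest near the centre of the short peaks, and single-copy sequence extends farther at the longer ones.

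By position in genes the short peaks resembled longer ones. The centre lay in an exon in 225 (4.50%), in an intron in 3101 (61.9%) and between genes in 1680 (33.6%). The longer peaks had 3.91%, 62.4% and 33.7%, and of the sequenced bases away from promoters 3.65%, 56.7% and 39.6% were of these kinds. The short peaks differed from longer ones by 0.582 points in exons (0.00929 to 1.22), by −0.488 points in introns (−1.92 to 0.928) and by −0.0944 points between genes (−1.47 to 1.30). The interval of the first barely leaves out 0 and those of the others include it. In 53 short peaks (1.06%) the centre lay in coding sequence.

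The distances to other features also differed. The nearest transcript start lay a median of 10020 bp from the centre (9571 to 10510), against 10870 bp (10720 to 11020) for longer peaks, and within 5000 bp for 29.9% against 25.8%. Part of this difference is set by the rule, since the centre of a longer peak must lie farther from a start. From the nearest edge of the peak, a measure added after these values were seen, the medians were 9936 bp (9492 to 10430) and 10350 bp (10210 to 10510), and the share within 5000 bp was 30.4% against 28.4%, a difference of 1.98 points (0.646 to 3.34). The short peaks were farther from other peaks, with a median gap to the nearest of 4274 bp (4023 to 4553) against 3133 bp (3060 to 3216). Another peak lay within 1000 bp of 17.3% of the short peaks (16.3 to 18.4) and 23.0% of longer ones (22.6 to 23.4), and the smallest gap in the list was 605 bp. The nearest peak was itself short for 9.23% (8.46 to 10.1), beside 10.2% of all peaks that were short. Since no gap in the list was under 605 bp, short peaks closer together than this could not be seen. The gaps and this share thus describe only peaks that the call kept apart, and whether short peaks gather was not tested. The most isolated short peak was 2298986 bp from any other.

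The density per chromosome followed that of longer peaks. Short peaks numbered 1.91 per Mb of sequenced bases away from promoters. Chromosome 17 had the most at 3.49 per Mb and chromosome X the fewest at 0.473, a ratio of 7.38 (5.63 to 9.67). This pair was picked as the extremes, which the interval does not cover. Longer peaks numbered 23.9 and 3.68 per Mb on the same chromosomes. As a share of the peaks away from promoters, short peaks varied less, from 9.66% on chromosome 2 (8.82 to 10.6) to 12.8% on chromosome 17 (11.3 to 14.4). The copy number of the chromosomes in this line was not measured here, and its part in the density was not tested.

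**Figure D5:**
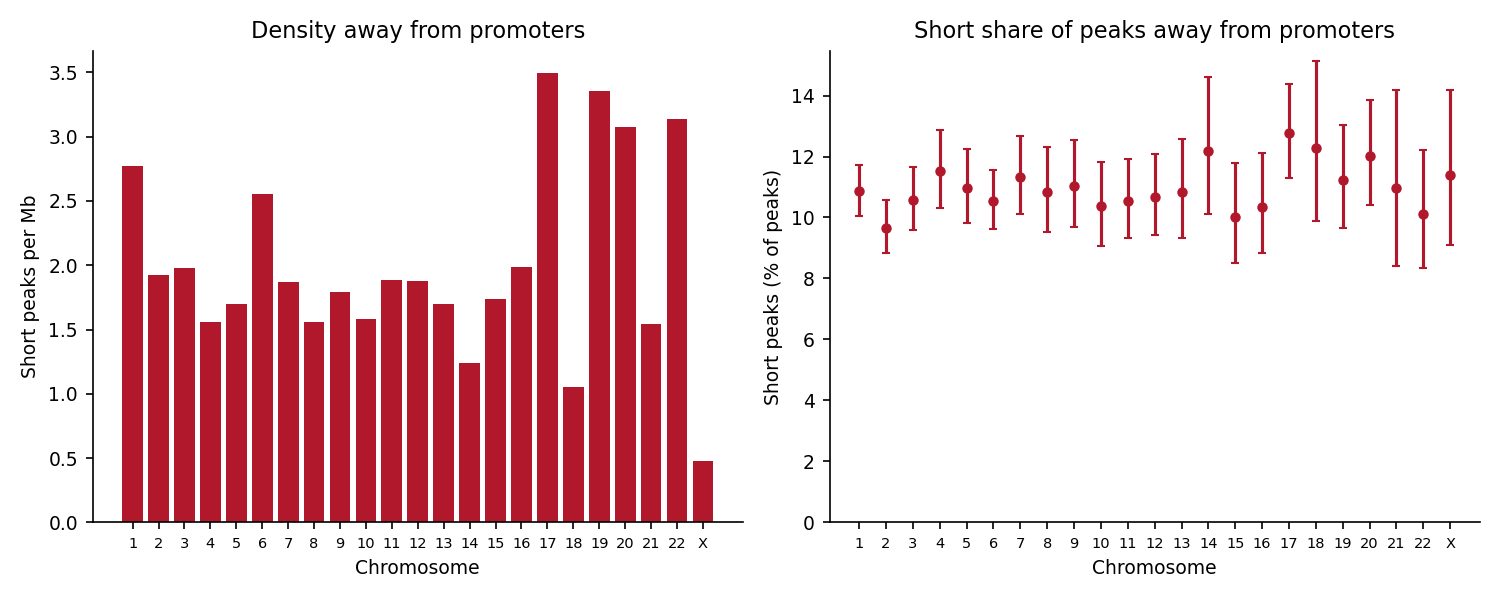
Left, short peaks away from promoters per Mb of sequenced bases for each chromosome. Right, the short peaks in percent of the peaks away from promoters, with Wilson 95% intervals; the density differs widely, from 0.473 to 3.49 per Mb, while the shares lie between 9.66% and 12.8%.

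The short peaks were spread over many genes. At least 1 had its centre in 2003 of 20098 protein-coding genes (9.97%), and of these genes 1494 held 1 and 323 held 2. Length went with this count, since a short peak lay in 3.35% of genes under 50 kb, in 17.9% of genes of 50 to 200 kb and in 40.9% of longer genes. Most were in *BCAS3* on chromosome 17, which is 715386 bp long and held 10, beside 44 longer peaks. *ROBO1*, a receptor of Slit guidance proteins, held 8 over 1170760 bp. Then came 5 genes with 7 each, *ARID1B*, a subunit of the BAF remodeller, *RERE*, a nuclear receptor corepressor, *FMNL2*, a formin, *ADGRB3*, an adhesion receptor, and *MACROD2*, an ADP-ribose hydrolase. A further 10 genes held 6 each, of which *CNTN1*, *FAF1* and *GHR* come first by symbol. Per length the 10 genes named differed, from 0.340 short peaks per 100 kb in *MACROD2* to 2.23 in *FMNL2*.

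Genes of the melanocyte lineage and of pigment are longer than genes in general, and short and longer peaks were both found in a larger share of them. Of 23 such genes, 9 held at least 1 short peak (39.1%, beside 9.97% of all protein-coding genes) and 18 held a longer one (78.3%, beside 31.6%). The median length for the list was 62193 bp against 27256 bp for all. *MITF* held 2, in introns at chr3:69933058-69933208 with a fold enrichment of 3.25 and at chr3:70006971-70007126 with 2.73. *ZEB2*, a repressor that the lineage requires, held 4 intronic ones with 2.46 to 2.87. *LEF1*, a partner of beta-catenin, had the strongest of the list at chr4:109037982-109038168, at 4.45-fold (−log10 q 6.23). The *DCT* peak (dopachrome tautomerase) followed at chr13:95105405-95105555 with 4.02 and 4.03. The peaks in *PAX3*, *MLPH*, *KIT* and *MLANA* were intronic with 3.05 to 3.78, and that of *TYRP1* was in an exon with 3.03.

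The other lists are read beside the same 9.97%. Of 15 genes of NuRD subunits 3 held short peaks (20%, with a median length for the list of 44443 bp), *HDAC2*, a histone deacetylase, with 2 of 3.93 and 3.05, *MTA3* with 3.04 and *GATAD2A* with 3.01. Of the 18 genes of AP-1 and TEAD factors and their coactivators, 3 held short peaks (16.7%). *YAP1*, the coactivator of TEAD factors, held a peak at chr11:102068726-102068898 with 5.25 and a −log10 q of 6.78 and another with 3.70, *TEAD1* held 2 with 3.29 and 2.63, and *WWTR1* held 1 with 3.07. Of 14 genes of the invasive melanoma state 2 did (14.3%, with a median length of 117578 bp), *ROR2*, a receptor of WNT5A, with 5.14 and a −log10 q of 6.45 at chr9:94496895-94497047, and *EGFR*, in an exon, with 2.73. Of 11 feedback and output genes of the MAPK pathway *ETV4* did (9.09%), with 3.85. Of 10 genes of the PADI family and others that the study names, *PADI2* did (10.0%), with 2.81 and a −log10 q of 1.56. With a −log10 q of at least 2, a short peak was left in 1 NuRD gene, 2 of the AP-1 and TEAD list and 2 of the invasive state. It was left in *ETV4* and in 0 genes of the last list, beside 1326 of 20098 protein-coding genes. The lists differ in the length and number of their genes, and nothing particular to a list is read from these counts.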

How the data were processed

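Chromatin of 501Mel cells gave 1 library after CHD4 ChIP and 1 of input. Single reads were mapped by the authors to hg19 with Bowtie (1.0.0 in the submitters' processing notes), who kept reads with 1 best position, extended them to 151 bp and called broad peaks with MACS2 (2.1.1.20160309). Whether the call used the input as its control is not stated. The labels and the methods name different library kits. The deposited peak list gives start and end positions, a score, the authors' fold enrichment as a ratio, and the authors' −log10 q, beside a −log10 p that was not used. Per the file, it carries no read counts, so the depth at each peak is unknown, and the library totals of the study were not used here.

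Positions were counted from 1 and compared with GRCh37 and GENCODE release 44 lifted to it. An overlap of 1 bp counted. Motifs were matched on both strands within 250 bp of the peak centre, in flanks 5000 bp away on both sides and in tiled windows. Wilson, Newcombe and log-ratio intervals are at 95%, and medians have order-statistic intervals. Exons, introns and gene bodies are those of all annotated transcripts unless protein-coding genes are named. Named are the 10 short peaks of highest fold enrichment, the 10 genes with most short peaks, the listed genes with any, the 5 strongest with a CTCF match, and those whose sequences are printed. Of these, 1 of the strongest peaks and 1 sequence are not reported here. The words TCATGTG and GGTCACA, the repeat runs and the sequences shown for TCATGTG were chosen after values had been seen. The members and the gene lists were chosen with earlier results of these data known. Alternatives covered length and promoter limits, windows, annotation, q and identity. The code was tested on simulated data. Python 3.11.15, samtools 1.23.1, blastn 2.17.0, numba 0.67.0, pysam 0.24.0, scipy 1.17.1, pandas 2.3.3, numpy 2.4.6 and matplotlib 3.10.9 were used.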

Additional observations from a re-analysis of the deposited data

How the results depend on the processing

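Of 58 values under an alternative, 41 stayed within the spread or factor set for them and 17 moved. With a −log10 q of at least 2, 2861 short peaks and 1326 genes were left, the ratio of the densest to the sparsest chromosome was 5.57, and 33.2% of the short peaks had another such peak within 5000 bp, against 53.7% for the whole list. A limit of 1000 bp gave 17.3%. Counting any base in an exon gave 5.69% exonic short peaks, and protein-coding genes alone gave 3.36% in exons, 50.3% in introns and 46.3% between genes. The GC content was 43.7% over the bases of the peaks. Within 100 bp of the centre the CTCF ratio to the flanks turned from 9.83 to 0.600 (0.165 to 2.18), since the matches lie farther out, within 600 bp, added after the data were seen, it was 4.78 (3.53 to 6.47), and that of CATGTG within 100 bp was 1.62. At 90% identity 0.120% of the short peaks aligned to another. The downstream share beside CTCF stayed between 68.8% and 70.9%. No paired analysis was possible because each group has a single library. No replicate could be left out. The list gives no counts, so nothing can be said of peaks below the authors' threshold, and the depth of the single ChIP library limits each value in a way that could not be measured.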
